A study of Mus musculus with 6 samples.

Results

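Mdm4, Mybl2 and Rif1 are 3 genes of the cell cycle and the DNA damage response. Their transcripts had many listed contact sites of JARID2 in untreated mouse embryonic stem cells and few or none after retinoic acid. The list after retinoic acid was shorter as a whole (5348 against 23380 sites), and read depth is unknown. The genes were chosen with earlier site counts of these data known, and their sites were then taken by position, as all sites on the sense strand within 3 windows of the mm9 build. The windows held 201 of 23380 sites in the list for untreated cells (0.860% of the list, exact 95% binomial interval 0.745 to 0.986) and 21 of 5348 sites in the list for treated cells (0.393%, 0.243 to 0.600). They are chr1:134876000-134916000 on the minus strand for Mdm4, chr2:162880000-162911000 on the plus strand for Mybl2 and chr2:51928000-51989000 on the plus strand for Rif1. Because of that choice, the counts are a description and were not tested.

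The study mapped RNA bound by JARID2 in the mouse embryonic stem cell line E14, kept in serum with LIF, a cytokine that holds them undifferentiated. A control group of 3 libraries was left untreated, and a group of 3 libraries received 2 µM retinoic acid, an inducer of differentiation, for 24 h. All cells took up 4-thiouridine (500 µM for 2 h), were irradiated at 312 nm with 400 mJ/cm2 and were lysed for immunoprecipitation with an in-house JARID2 antibody. This is PAR-CLIP, which joins a protein to the RNA it touches and reads out short sites of contact. The authors deposited 1 pooled list per condition, so n is 1 list per condition with no spread between libraries, and intervals cover counting error only. The E14 line and its markers were not checked here, because the lists name no genes and no gene annotation of mm9 was used.

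JARID2 is a partner of the Polycomb complex PRC2, which methylates histone H3 and keeps developmental genes silent in embryonic stem cells, and both bind RNA. The proteins encoded by the 3 genes act at different steps of cell division and genome protection. MDM4 binds the tumour suppressor p53 and, with its relative MDM2, holds its activity down. MYBL2 (B-Myb) is a transcription factor that joins the MuvB complex to switch on genes needed for mitosis, and it is abundant in dividing stem cells. RIF1 sets the timing of DNA replication and protects broken DNA ends together with 53BP1, and it is also abundant in mouse embryonic stem cells. The sequences of the contact sites are not shown, since no genome of the mm9 build was used.

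Mdm4, the inhibitor of p53, had the most sites of the 3. Its window held 87 untreated sites, which was 0.372% of that list (exact binomial interval 0.298 to 0.459). The treated list held 10 sites there, 0.187% (0.0897 to 0.344). At an unchanged share of the list, 19.9 treated sites would have been listed. The treated share was the lower. The intervals of the lists overlap, which does not show that the shares are equal.

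Rif1, the replication timing and repair factor, came next. It held 75 untreated sites (0.321%, exact binomial interval 0.252 to 0.402) and 11 treated sites (0.206%, 0.103 to 0.368), where an unchanged share would give 17.2. These intervals overlap as well, which again does not show equal shares.

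Mybl2, the mitotic transcription factor, held 39 untreated sites (0.167%, exact binomial interval 0.119 to 0.228) and is listed with 0 treated sites. A count of 0 allows a share of up to 0.0561% of the treated list when 3 sites over the list are taken as the floor, and the exact binomial interval reaches 0.0690%. An unchanged share would give 8.92 treated sites. The intervals of the lists do not overlap for Mybl2, but the gene was chosen with site counts known, so this is no test. All listed contacts followed the sense strand, and each of the 3 windows held 0 antisense sites in both lists. Fewer contacts and less RNA of a gene in the cells cannot be told apart in these lists, as no RNA level was measured with them.

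How far the 3 genes stood out depended on the measure. Neighbouring sites of either list on the same strand formed a region when at most 10 kb separated them, and 143 regions had at least 20 untreated sites. Of these, 8 regions (5.59%) held 0 treated sites, and Mybl2 was among the 8. All 3 genes had fewer treated per untreated sites than the whole lists, whose ratio is 0.229, but so did 112 of the 143 regions (78.3%). By that ratio, lowest first, Mdm4 at 0.115 ranked 53rd and Rif1 at 0.147 ranked 66th. The values of Mdm4 and Rif1 thus lay near the middle of these regions. The regions were picked by their untreated sites alone, so a low ratio among them is partly built in. The genes were chosen with this contrast known, so nothing about the genes is read from these shares.

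**Figure D1:**
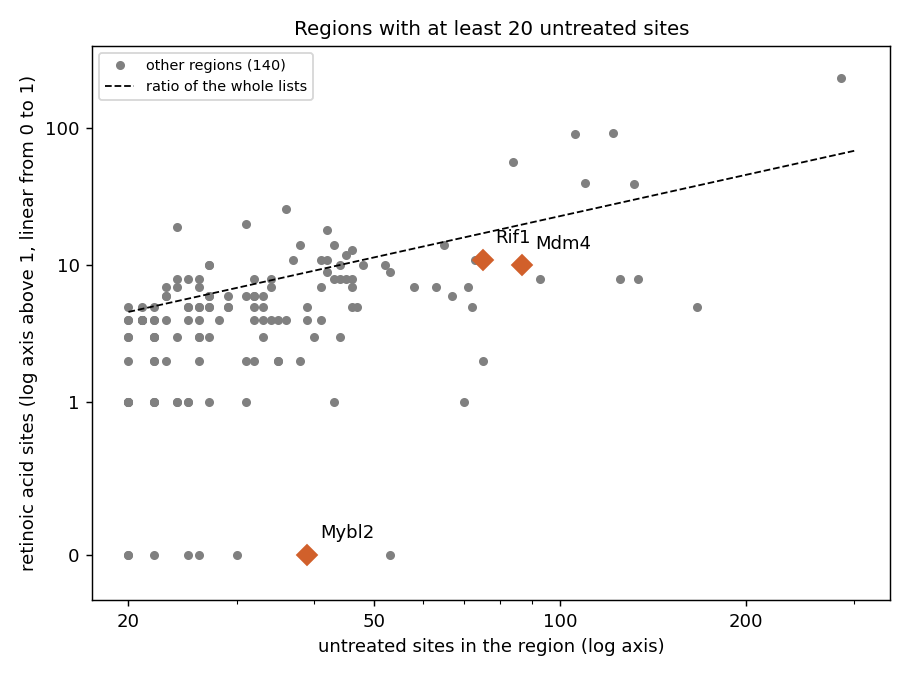
Untreated sites (log axis) against retinoic acid sites (log axis above 1, linear below) for 143 regions with at least 20 untreated sites, with the ratio of the whole lists as a dashed line. Mdm4 (87 and 10) and Rif1 (75 and 11) sit below the line among many other regions, and Mybl2 (39 and 0) is 1 of 8 regions at 0 treated sites.

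By number of untreated sites Mdm4 ranked 10th of the 143 regions, Rif1 12th and Mybl2 46th, against a median of 31 sites. Mdm4 was also denser, with 2.23 untreated sites per kb over its region, while Mybl2 had 1.49 and Rif1 1.27, beside a median of 1.13 over all these regions. The region most like Rif1 in sites, span and score was chr3:41359975-41420590 on the plus strand, with 73 untreated and 11 treated sites over 60.6 kb. It was also the nearest to Mdm4, at a distance of 0.73 on log2 axes against 0.056 for Rif1. The region nearest to Mybl2, at 0.50, was chr4:145262370-145294098 on the plus strand, with 30 untreated and 0 treated sites over 31.7 kb. These likenesses rest on 2 pooled lists and 4 measures.

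Contacts were spread along most of each window. In Mdm4 the untreated sites ran from 134876385 to 134915377, a span of 39.0 kb, with a median gap of 230 bases between neighbours and a longest gap of 4.86 kb near the 3′ end. The whole Mdm4 gene is 71.1 kb in GENCODE M21, an annotation of the later GRCm38 build from which only lengths were taken, so the window of 40 kb covers part of it. From the 5′ end, 5 equal parts of the window held 9, 34, 13, 24 and 7 untreated sites. Sites were thus most frequent in the second and the fourth part and sparse at both ends. In all, 41 of the 87 sites lay within 100 bases of another untreated site.

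In Mybl2 the untreated sites ran from 162881521 to 162907740, a span of 26.2 kb, with a median gap of 433 bases. The 5 equal parts of its window held 8, 11, 4, 9 and 7 sites, so each of these parts held some. The longest stretch without a site between its first and last site, 4.50 kb, lay near the middle of the window from 162893937 to 162898435. Only 15 of its 39 sites were within 100 bases of another.

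In Rif1 the untreated sites ran from 51929561 to 51988516, a span of 59.0 kb, with a median gap of 316 bases, and its 5 parts held 12, 10, 18, 25 and 10 sites. Contacts were most frequent in the fourth part, toward the 3′ end. The last site, from 51988511 to 51988516 with a score of 11, stood 8.46 kb apart from the others. Without it the span was 50.5 kb. In GENCODE M21 the Rif1 gene (ENSMUSG00000036202.16) is 49.6 kb long, so if its length is the same in mm9, the listed sites reach past the gene at an end.

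**Figure D2:**
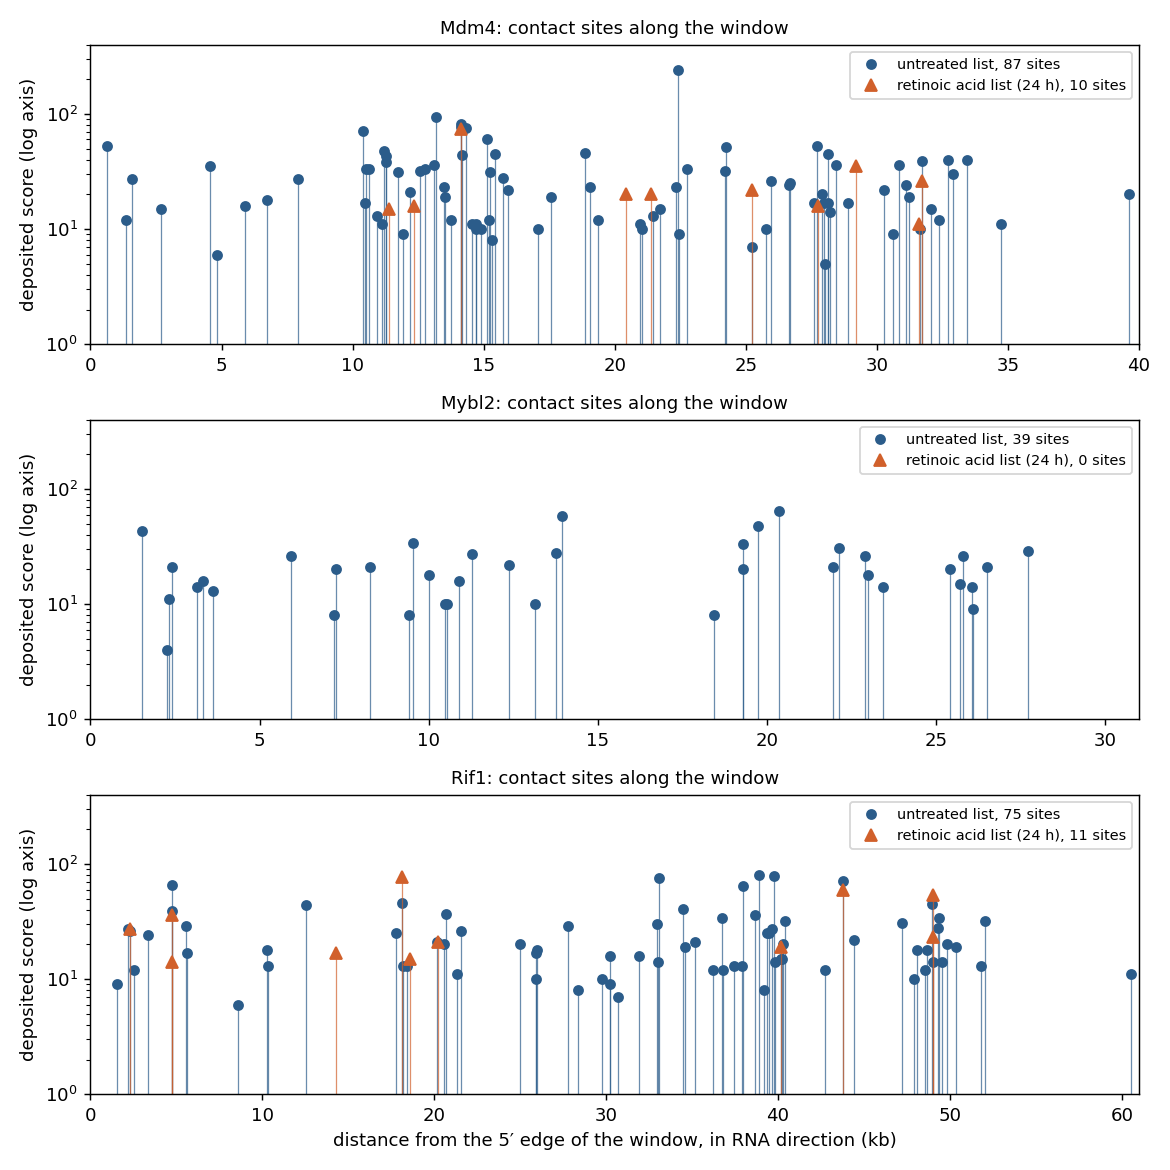
Position of each contact site, as distance in kb from the 5′ edge of the window in the direction of the RNA, against its deposited score on a log axis. Circles are the 87, 39 and 75 untreated sites of Mdm4, Mybl2 and Rif1, spread over the windows, and triangles are the 10 treated sites of Mdm4 and 11 of Rif1.

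Part of the Mdm4 and Mybl2 contacts must lie outside the exons of the main messenger RNA. The principal Mdm4 transcript with the most exon sequence in GENCODE M21 (gene ENSMUSG00000054387.13) has 11 exons with 7.11 kb in all, 18.1% of its 39.2 kb. However its exons were placed, 11 stretches of that total length could touch at most 62 of the 87 untreated sites, so at least 25 (28.7%) lay outside them. For Mybl2 (gene ENSMUSG00000017861.11), with 14 exons and 3.65 kb out of 30.0 kb, at most 33 of 39 sites could be touched, and at least 6 (15.4%) lay outside. For Rif1, with 36 exons and 8.51 kb, the same count gave no limit, since 36 stretches could touch all 75 sites. These limits assume that exon number and length are the same in both builds. They are the fewest sites possible outside those exons, not an estimate, and single sites were not assigned to exons or introns.

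Treated sites lay inside the stretch already contacted in untreated cells. In Mdm4 they spanned 20.3 kb, from 134884280 to 134904617, with 0, 3, 2, 5 and 0 sites in the 5 equal parts from the 5′ end. In Rif1 they spanned 46.7 kb, from 51930299 to 51977044, with 3, 4, 0, 2 and 2 sites. The middle part of Rif1, with 18 untreated sites, is listed with 0 treated ones, and the treated sites left a gap of 19.9 kb there. With 10 and 11 treated sites, an empty part carries little weight.

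Some treated sites overlapped untreated ones. In Mdm4, 4 of 10 treated sites (40.0%, exact binomial interval 12.2 to 73.8) shared at least 1 base with an untreated site, and in Rif1 7 of 11 did (63.6%, 30.8 to 89.1). These shares depend on the overlap asked for: with 50% of both sites in common they were 20.0% and 54.5%, and counting sites up to 100 bases apart they were 70.0% and 81.8%. Over the whole treated list 27.3% of sites were shared. The interval for Mdm4 includes that value and the interval for Rif1 does not, but sites of the same transcript are not independent and the genes were picked from these lists, so this is no test. Of the untreated sites, 4 of 87 in Mdm4 (4.60%) and 7 of 75 in Rif1 (9.33%) were shared, against 6.28% of the whole list. Mybl2 had 0 treated sites, so the shared count of its 39 untreated sites could only be 0 and adds nothing.

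The shared Mdm4 sites had these scores. The treated site from 134901872 to 134901881, scored 74, was the highest of the treated sites of Mdm4. It shared only 2 bases with an untreated site scored 82, the third highest of the untreated Mdm4 sites. The treated site from 134884280 to 134884288 scored 26 against 39 untreated. From 134884373 to 134884385 the treated score was 11 against 10, and from 134890746 to 134890777 it was 22 against 7. Scores were thus higher in the treated list at 2 of these 4 places and lower at 2.

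In Rif1 the highest treated site, from 51946121 to 51946128, scored 77 and met an untreated site scored 46. The site from 51971774 to 51971789 scored 60 treated against 71 untreated, and that from 51932727 to 51932735 scored 36 against 66. These 3 had the highest treated scores among the shared contacts of Rif1. The others were lower: 27 against 26 from 51930299, 23 against 14 from 51977004, 19 against 15 from 51968141, and 14 against 39 from 51932766. Over both genes the treated score was the higher at 6 of 11 shared places and the lower at 5, with medians of 26 treated and 39 untreated. Where a contact was listed in both conditions, the scores had no common direction.

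Treated sites that met no untreated site were also listed. In Mdm4 the 6 such sites lay 12 to 515 bases (median 121) from the nearest untreated site, and 3 lay within 100 bases. They were listed from 134886804, 134888253, 134894609, 134895557, 134903656 and 134904604, with scores of 35, 16, 20, 20, 16 and 15. In Rif1 the 4 such sites lay 16 to 1700 bases away (median 117). The farthest, from 51942260 to 51942266, scored 17 and lay 1700 bases from its neighbour, in a part of Rif1 with few untreated sites. The other 3, from 51946598, 51948203 and 51977027, scored 15, 21 and 54.

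Most contacts of the 3 genes had modest scores. The score is the authors' whole number per site, and no source used here says what it counts. Untreated Mdm4 sites scored 5 to 241 with a median of 22, Mybl2 sites 4 to 65 with a median of 20, and Rif1 sites 6 to 80 with a median of 19. The median of the whole untreated list was 17, a little below these medians. High scores were rare in them: 1 of their 201 untreated sites (0.498%) scored at least 100, against 8.09% of the whole list. Among the 143 site-rich regions the highest score per region had a median of 104, and by it Mdm4 ranked 45th, Rif1 89th and Mybl2 107th, so Mdm4 lay above the median region and the other two below it. The 201 sites carried 0.0801% of the summed untreated score while being 0.860% of the sites, but that sum is weighted by sites with very high scores, up to 480704.

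The site scored at least 100 was in Mdm4, from 134893589 to 134893611, with a score of 241. It carried 9.40% of the summed Mdm4 score of 2564, and the nearest treated site was 998 bases away. The next highest Mdm4 sites scored 95, from 134902802 to 134902819, and 82, from 134901868 to 134901873. The highest site of Mdm4 before treatment therefore met no treated site, whereas the third met one, over 2 bases only.

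The 3 highest Rif1 sites before treatment scored 80, 78 and 75, from 51966859 to 51966876, from 51967776 to 51967796 and from 51961065 to 51961078. None of the 3 met a treated site, the nearest being 345 to 7063 bases away. In Mybl2 the highest scored 65, 58 and 48, from 162900354 to 162900365, from 162893922 to 162893937 and from 162899743 to 162899760. The site scored 58 borders the stretch without sites near the middle of the Mybl2 window, on its 5′ side. The site bordering that stretch on the 3′ side scored 8, and the site scored 65 lay farther 3′ with other sites between.

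After treatment, Mdm4 sites scored 11 to 74 with a median of 20, and Rif1 sites 14 to 77 with a median of 23, the same median as the whole treated list. None of the 21 scored at least 100, while 20.3% of the whole treated list did. The list as a whole held a larger share of scores of at least 100 after treatment (20.3% against 8.09%). Mdm4 had 1 such site untreated and Rif1 0, and both had 0 treated, too few to compare the lists at this score. At a score of at least 50, the Rif1 share was 8.00% untreated (6 of 75) and 27.3% treated (3 of 11). The whole lists had 14.6% and 29.7% there, and Mdm4 11.5% and 10.0%. Summed scores were 2564 untreated and 255 treated for Mdm4, 1850 and 363 for Rif1, and 856 untreated for Mybl2.

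**Figure D3:**
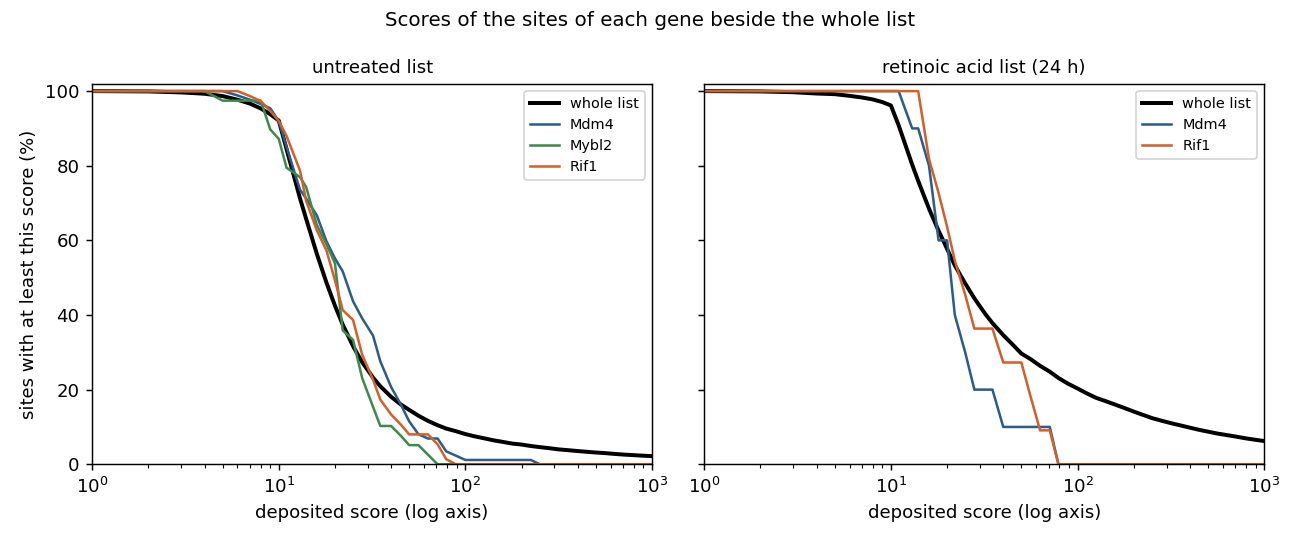
Share of sites (%) with at least the score on the log axis, for the whole list (black) and the sites of each gene, in the untreated list (left) and the retinoic acid list (right). From scores of 50 on the curves of the genes lie below that of the whole list, with 1 of 201 untreated and 0 of 21 treated sites at 100 or more.

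Contacts were short in both lists. Untreated sites were 13 bases long at the median in Mdm4 (3 to 44) and 12 bases in Mybl2 (6 to 36) and Rif1 (6 to 36), where the whole list had 12. Treated sites had medians of 10.5 bases in Mdm4 and 10 in Rif1. The untreated sites covered 1290 bases of Mdm4, 530 of Mybl2 and 1051 of Rif1, small parts of windows of 40, 31 and 61 kb.

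The names of the sites give a further view of these genes. Each name holds a running number and, after a point, an index, and the running numbers went up along every strand with 0 reversals in either list. Many numbers have no listed site: the highest was 247324 untreated and 221592 treated, and 8.68% and 2.12% of them carried a site. No source used here says what the unlisted numbers stand for. The highest numbers thus differed by a ratio of 0.896, nearer to 1 than that of the site counts (0.229).

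Within Mdm4, the stretch from the first to the last treated site took up 80 numbers in the treated list and 137 to 139 in the untreated list, a ratio of 0.576 to 0.584. Of these, 10 (12.5%) carried a treated site and 48 an untreated site (35.0% of 137). In Rif1 the same stretch took up 109 numbers treated and 185 to 187 untreated, a ratio of 0.583 to 0.589, with 9 (8.26%) and 57 (30.8% of 185) carrying a site. Both genes had fewer numbers and a smaller share of numbers with a site in the treated list. The same held for the whole lists, where that share was 8.68% untreated and 2.12% treated. Over 112 site-rich regions where the ratio of numbers could be formed, its median was 0.821 (quartiles 0.648 and 1.03, range 0.306 to 2.00). Mdm4 ranked 16th and Rif1 17th from the lowest.

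Mybl2, with 0 treated sites, can be bounded by its neighbours. The nearest treated sites on its strand ended at 162764218, 116 kb before the window, and began at 163431222, 520 kb after it. At most 62 running numbers lay between them in the treated list. The untreated list had at least 134 numbers in the same interval, all between the first and the last site of Mybl2, and at most 178. The ratio was therefore at most 0.463. The values of Mdm4 and Rif1 were higher, but they cover the stretch between each gene's own treated sites, so the intervals are not alike. Of the 134 untreated numbers, 37 (27.6%) carried a site, close to the median of 27.0% over the 143 site-rich regions.

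**Figure D4:**
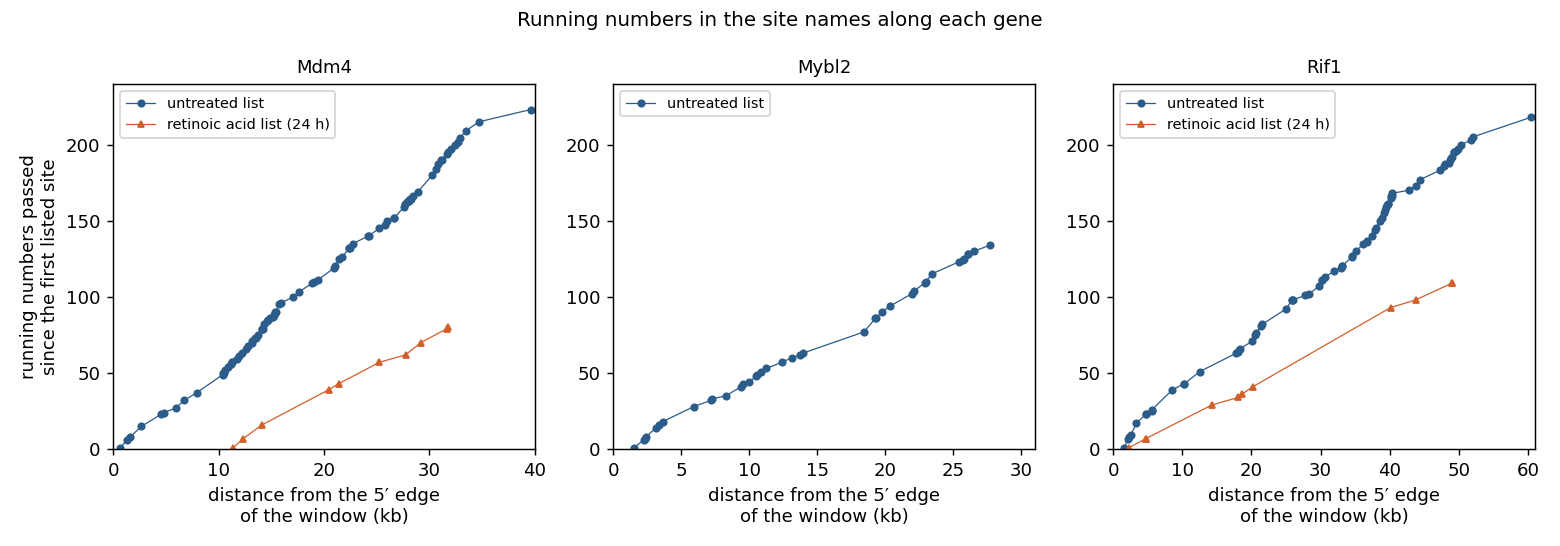
Running numbers passed since the first listed site of a gene (vertical axis), against the distance of each site from the 5′ edge of the window in kb, for the untreated list (circles) and the retinoic acid list (triangles). From the first to the last untreated site, the untreated numbers climb to 223, 134 and 218 in Mdm4, Mybl2 and Rif1. From the first to the last treated site, a shorter stretch, the treated numbers reach 80 in Mdm4 and 109 in Rif1. The untreated list took up 137 to 139 and 185 to 187 over those same stretches. No treated point exists for Mybl2.

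Few sites on the strand of each gene lay near the windows on the outside, and the distances given here cover that strand only. The nearest untreated site outside the Mdm4 window lay 14.9 kb away on the 5′ side, from 134930947 to 134930962 with a score of 90, and no treated site was nearer than 628 kb. As the annotated Mdm4 gene is longer than the window, that site may belong to Mdm4, where its score would be the third highest. For Mybl2 and Rif1 the nearest outside site of either list on the same strand was 116 kb and 732 kb away. Inside its window, the outermost untreated sites of Mdm4 scored 20 and 53.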

How the data were processed

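PAR-CLIP of JARID2 was made from 3 untreated libraries and 3 libraries given retinoic acid. The authors deposited 1 list of sites per condition, pooling libraries b1 to b3 per the labels, with a whole-number score per site in column 5, of unstated meaning. Bowtie and mm9 are named in the submitters' processing notes, with no role. No source used here gives the read depth or the program that called sites.

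All sites were kept. A site belonged to a gene when it lay wholly in the window on the sense strand. Shared sites had 1 or more bases in common on their strand. Regions joined sites of both lists across gaps of up to 10 kb. The region most like a gene had the smallest Euclidean distance over log2 of untreated sites + 1, treated sites + 1, span in kb and median untreated score. For all 3 genes, the 3 highest-scored sites and all treated sites were named. Bounds on running numbers used the sites at the ends of an interval and the nearest outside it, and ratios over site-rich regions needed at least 2 treated numbers with a site and a stretch of at least 10. Exon lengths came from GENCODE M21 (GRCm38), and no coordinates were converted. Intervals are exact 95% Clopper-Pearson intervals, and no tests were made. The members and lists were chosen with earlier results of these data known. Other genes of p53 control, the MuvB complex, replication and repair, and marker genes, were listed for counting but had no mm9 positions here and were not analysed. Overlaps, exon limits and number bounds were tested on simulated data. The work used scipy 1.17.1, pandas 2.3.3, numpy 2.4.6, Python 3.11.15 and, for figures, matplotlib 3.10.9.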

Additional observations from a re-analysis of the deposited data

How the results depend on the processing

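Of 66 alternative values for 20 results, 52 stayed within 1.5 times a count or within the interval of a share or median, and 14 moved. Among the 52, 5 could only stay at 0, because the setting removes sites from a count of 0. Further values could not move either. With 0 antisense sites in the windows, counting both strands or ignoring the strand changes nothing. No site on the strand of a gene lay within 10 kb outside its window, so widening changes nothing. The untreated Mybl2 sites had no treated site to meet under any setting. The 52 therefore overstate how stable the results are. The intervals of the shares are wide: the shared part of the untreated Mdm4 sites, 4.60%, was 2.30% with 50% of both sites in common and 10.3% at up to 100 bases apart, both within its interval. With a score of at least 20, untreated sites numbered 48 in Mdm4, 21 in Mybl2 and 37 in Rif1, and treated sites 6 in Mdm4 and 7 in Rif1. With a score of at least 100, 1 untreated site was left in Mdm4 and 0 in Mybl2 and Rif1, and 0 treated sites in Mdm4 and Rif1. Both settings leave fewer sites by construction. Mybl2 had 0 treated sites with the window widened by 10 kb on each side and on both strands. With regions joined across gaps of up to 1 kb, the genes broke into parts whose largest held 34 untreated sites in Mdm4, 21 in Rif1 and 7 in Mybl2. By untreated sites these ranked 21 (Mdm4) and 48 (Rif1) of 52 regions, and Mybl2 had no part with 20 sites to rank. The share of regions with 0 treated sites was then 1.92%, and it was 13.9% with at least 10 untreated sites required. Without the outlying Rif1 site, an alternative chosen after seeing the data, 74 untreated sites remained in Rif1. No paired analysis was possible because each list pools its libraries, and for the same reason no library could be left out. Read depth is unknown, so a lower site count is not shown to be a lower rate of contact.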
